A study of Mus musculus with 12 samples.

Results

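The cyclin-dependent kinase (CDK) inhibitor genes described here were the 6 genes Cdkn1a, Cdkn1b, Cdkn2a, Cdkn2b, Cdkn2c and Cdkn2d, taken by exact gene symbol from the expression tables of mouse oocytes in which a Polycomb complex had been disrupted. They were 6 of 55385 gene models in the table of the PRC2 experiment and 6 of 55401 in that of the PRC1 experiment, and each symbol matched a single row in both tables. CDK inhibitors are small proteins that hold cyclin-CDK enzymes inactive. The CIP/KIP members p21 (Cdkn1a) and p27 (Cdkn1b) bind CDK2 and CDK1 complexes, whereas the INK4 members p16 and p15 (Cdkn2a, Cdkn2b), p18 (Cdkn2c) and p19 (Cdkn2d) bind CDK4 and CDK6 and keep D-type cyclins off them. In mice, p27 is known for restraining the activation of resting primordial follicles, p21 is a classical target of the p53 family, and the linked Cdkn2a and Cdkn2b genes are classical Polycomb targets in fibroblasts and stem cells.

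RNA sequencing had been made on oocytes from mouse ovaries in 12 libraries, 2 for each of 6 groups. In the PRC2 experiment, control (Eed F/+; Ddx4-Cre) and conditional knockout, cKO (Eed F/-; Ddx4-Cre), were each taken as non-growing oocytes at postnatal day 6 and as growing oocytes at day 7. Eed encodes a core subunit of PRC2, the complex that methylates lysine 27 of histone H3. In the PRC1 experiment, growing oocytes of day 7 were compared between control (Ring1-/-; Rnf2 F/+; Ddx4-Cre) and cKO, where Ring1 and Rnf2 encode the alternative catalytic subunits of PRC1, which ubiquitinates histone H2A. The cKO label reads Ring1-/-; Ring1 F/-; Ddx4-Cre and so names Ring1 again, with no mention of Rnf2. Both PRC1 groups lacked Ring1, so neither is a wild type, and the Cre is driven by the germ cell gene Ddx4 in all 6 groups. Values are TPM, in which reads are divided by transcript length and scaled to the same total in each library, so that levels can be compared between genes. Whether the paired libraries were separate animals or pools is not stated in the labels, so p-values measure the spread between libraries, which may be technical. Sequencing depth is unknown, because TPM keeps no depth. Stage and age go together in the PRC2 experiment and cannot be told apart.

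All 15 oocyte markers checked were at 1 TPM or more in every library, but their summed TPM was lower in cKO. In the PRC2 experiment it was 11271 to 11574 in control and 7195 to 7819 in cKO non-growing oocytes. In growing oocytes it was 20373.5 to 21394 in PRC2 control and 16764 to 20109 in PRC2 cKO. The PRC1 control libraries had 21858 to 23538 and those labelled PRC1 cKO 16477 to 17619. Eed was at 88.85 and 90.47 TPM in control non-growing oocytes against 12.08 and 10.32 TPM in cKO, and at 62.27 and 60.45 TPM in control growing oocytes against 9.64 and 10.1 TPM in cKO. The PRC1 control libraries had no Ring1 signal (0 TPM each), and those labelled PRC1 cKO had 0.01 and 0.02 TPM. Rnf2 was not lower in the libraries labelled PRC1 cKO, with 87.75 and 61.42 TPM against 59.19 and 53.81 TPM in control; a value over the whole gene does not show whether particular exons were removed. The share of TPM in models of the annotation class TEC (loci awaiting experimental proof) was 2.48% to 2.57% in PRC2 control non-growing oocytes and 23.9% to 24.1% in growing ones, and fell from 20.9% to 22.5% in PRC1 control to 11.0% to 14.9% in the libraries labelled PRC1 cKO. TPM values of all genes sum to a constant, so a gene's value is lowered where such a class takes more of it. The changes of the members below are therefore set beside the median change of all genes. Other scalings are given for the calls of the members.

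The promoters of the members differed in CpG content and in motifs. Reading the 250 bases upstream of each RefSeq start (GRCm38.p6; 9 starts for 6 of 6 genes), CpG dinucleotides, the usual feature of Polycomb-bound promoters in mammals, numbered 28 at Cdkn1b, 12 at Cdkn2b and 16 at Cdkn2d, against a median of 6 over 32851 mouse starts. Cdkn2a had 40 CpG at the distal start that gives p19Arf (a p53 activator read in another frame) and 7 at the proximal start that gives p16Ink4a. A value of Cdkn2a here sums both products. Cdkn1a had 2 CpG at its distal start and 19 at its proximal start, and Cdkn2c had 29 at its distal start and 6 at its proximal start. The distal Cdkn1a start carried 2 matches to the p53 half-site (10 letters, searched on both strands), at 73 and 51 bases before the start; 7.13% of all starts had at least 1 match. Cdkn2d carried 1 match, and no other member start carried any. The GC box GGGCGG, on either strand, was present at the proximal Cdkn1a start, at Cdkn1b, at the distal Cdkn2a start, at the distal Cdkn2c start and at Cdkn2d, and 32.7% of all starts held it. The FOXO motif GTAAACA was in none of the 9 windows and in 3.17% of all starts. These matches describe letters and show no binding. The first sequence below is shown for its p53 half-sites, which are in capitals. In the others capitals mark CpG, and a relation of CpG content to the changes described below was not tested. Each is read 5′ to 3′ on the strand of the gene.
Cdkn1a distal start, chr17:29090729-29090978 (+): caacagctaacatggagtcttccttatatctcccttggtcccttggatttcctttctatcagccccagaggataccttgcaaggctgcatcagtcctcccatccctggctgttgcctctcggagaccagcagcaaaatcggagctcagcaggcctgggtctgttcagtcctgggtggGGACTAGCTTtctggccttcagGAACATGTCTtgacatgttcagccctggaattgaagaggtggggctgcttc
Cdkn1b, chr6:134920151-134920400 (+): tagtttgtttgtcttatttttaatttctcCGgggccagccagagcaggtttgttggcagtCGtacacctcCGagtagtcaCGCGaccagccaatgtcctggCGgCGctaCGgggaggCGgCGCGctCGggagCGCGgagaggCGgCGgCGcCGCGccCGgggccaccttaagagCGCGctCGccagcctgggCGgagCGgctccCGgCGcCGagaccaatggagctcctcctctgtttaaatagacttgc
Cdkn2a distal start (p19Arf), chr4:89294620-89294869 (-): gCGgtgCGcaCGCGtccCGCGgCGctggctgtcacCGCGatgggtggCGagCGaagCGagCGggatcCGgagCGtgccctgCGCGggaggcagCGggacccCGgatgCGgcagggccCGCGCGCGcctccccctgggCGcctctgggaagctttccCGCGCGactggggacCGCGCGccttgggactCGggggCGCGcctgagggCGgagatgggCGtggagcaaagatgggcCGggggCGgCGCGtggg
Cdkn2a proximal start (p16Ink4a), chr4:89282193-89282442 (-): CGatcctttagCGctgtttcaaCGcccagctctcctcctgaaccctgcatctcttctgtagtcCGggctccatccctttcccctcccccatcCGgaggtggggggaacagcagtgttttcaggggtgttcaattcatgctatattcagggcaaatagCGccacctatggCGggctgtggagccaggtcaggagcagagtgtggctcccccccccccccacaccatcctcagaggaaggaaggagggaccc
Cdkn2b, chr4:89311033-89311282 (-): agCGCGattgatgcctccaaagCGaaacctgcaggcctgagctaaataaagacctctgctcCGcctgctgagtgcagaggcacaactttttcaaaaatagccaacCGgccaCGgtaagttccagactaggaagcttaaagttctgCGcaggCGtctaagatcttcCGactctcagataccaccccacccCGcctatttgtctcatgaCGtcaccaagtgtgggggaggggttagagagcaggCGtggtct

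In control non-growing oocytes Cdkn1a was the most abundant transcript among the 6 genes, and it was the member that differed most between stages. Cdkn1a (ENSMUSG00000023067, chr17:29090976-29100727, + strand, GRCm38) was at 79.24 and 77.41 TPM in non-growing oocytes of PRC2 control mice, 48.83 and 67.9 TPM in non-growing oocytes without Eed, 9.5 and 5.01 TPM in growing control oocytes, and 6.4 and 7.1 TPM in growing oocytes without Eed. All 4 non-growing libraries lay far above all 4 growing ones, and the growing control and cKO libraries overlapped. An antisense TEC model, AC167363.2, overlaps a Cdkn1a exon and was at most 0.72 TPM, and reads from the overlap cannot be told apart if the counting ignored strand, which no source used here states. Cdkn1a made up 61.7% ± 1.07 (SD, n = 2) of the summed TPM of the 6 genes in non-growing control oocytes, where the sum was 126.91 and 127.05 TPM. In growing control oocytes its share was 25.1% ± 4.54 and the sum 33.51 and 22.85 TPM.

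**Figure D1:**
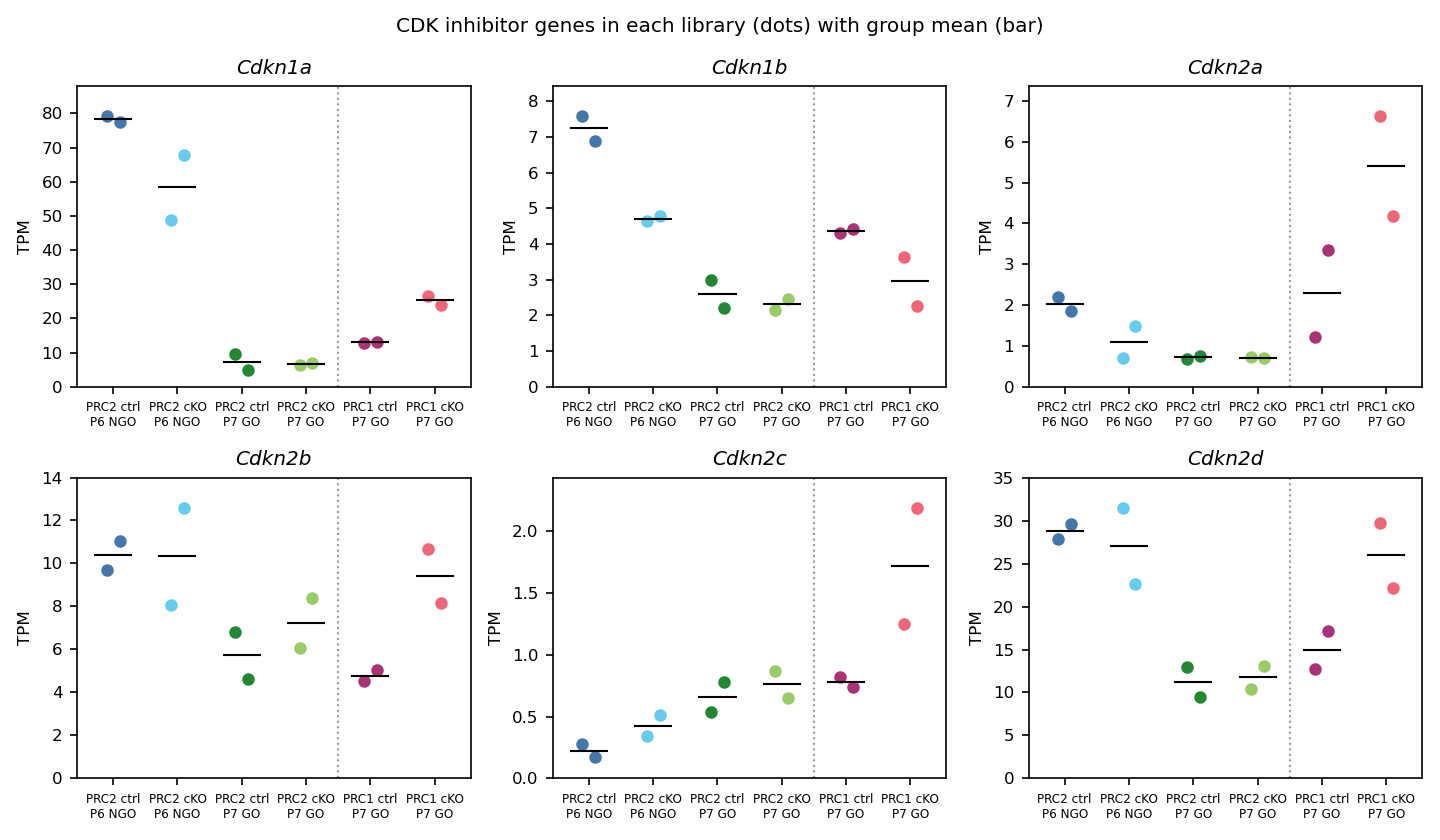
TPM (linear axis from 0) of each CDK inhibitor gene in the 12 libraries, with dots for libraries, horizontal bars for group means (n = 2), P6 NGO for non-growing oocytes of day 6 and P7 GO for growing oocytes of day 7. The dotted line separates the PRC2 and PRC1 tables. Cdkn1a drops from 77.41 to 79.24 TPM at the non-growing stage to 5.01 to 9.5 TPM at the growing stage of control oocytes.

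The second CIP/KIP member, Cdkn1b (ENSMUSG00000003031, chr6:134920401-134925513, + strand), was at 7.59 and 6.9 TPM in control non-growing oocytes, 4.65 and 4.78 TPM in non-growing oocytes without Eed, 2.99 and 2.22 TPM in control growing oocytes, and 2.16 and 2.46 TPM in growing oocytes without Eed. The first 3 groups stood in that order without overlap, and the growing groups overlapped. The transcript of p27 was thus lower per length than that of p21 in every library, by a ratio of 10.4 and 11.2 in non-growing control libraries and of 3.18 and 2.26 in growing ones.

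Among the INK4 genes, Cdkn2d was the most abundant in every library. Cdkn2d (ENSMUSG00000096472, chr9:21288410-21291407, - strand) was at 27.9 and 29.66 TPM in control non-growing oocytes, 31.54 and 22.58 TPM in non-growing oocytes without Eed, 12.96 and 9.47 TPM in control growing oocytes, and 10.38 and 13.14 TPM in growing oocytes without Eed. The stages were separated and the genotypes overlapped within each. Cdkn2b (ENSMUSG00000073802, chr4:89306299-89311039, - strand) was at 9.71 and 11.06 TPM in control non-growing oocytes, 8.08 and 12.6 TPM in non-growing oocytes without Eed, 6.83 and 4.61 TPM in control growing oocytes, and 6.05 and 8.41 TPM in growing oocytes without Eed. Within a genotype, the stages were separated in control and overlapped in cKO.

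Cdkn2a (ENSMUSG00000044303, chr4:89274471-89294653, - strand), which lies 11645 bases from Cdkn2b, was low throughout. It was at 2.19 and 1.85 TPM in control non-growing oocytes, 0.7 and 1.49 TPM in non-growing oocytes without Eed, 0.69 and 0.76 TPM in control growing oocytes, and 0.72 and 0.71 TPM in growing oocytes without Eed. Control non-growing oocytes were highest and the other 3 groups overlapped. Cdkn2c (ENSMUSG00000028551, chr4:109660876-109667189, - strand) was under 1 TPM in all 8 libraries, at 0.28 and 0.17 TPM in control non-growing oocytes, 0.34 and 0.51 TPM in non-growing oocytes without Eed, 0.54 and 0.78 TPM in control growing oocytes, and 0.87 and 0.65 TPM in growing oocytes without Eed. It was the only member whose control libraries were higher in growing oocytes, and it did not reach the 1 TPM in 2 libraries required for a test. Without that filter the stage difference in control was 0.44 on the log2(TPM + 1) scale, with an adjusted p of 0.062 from limma.

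**Figure D2:**
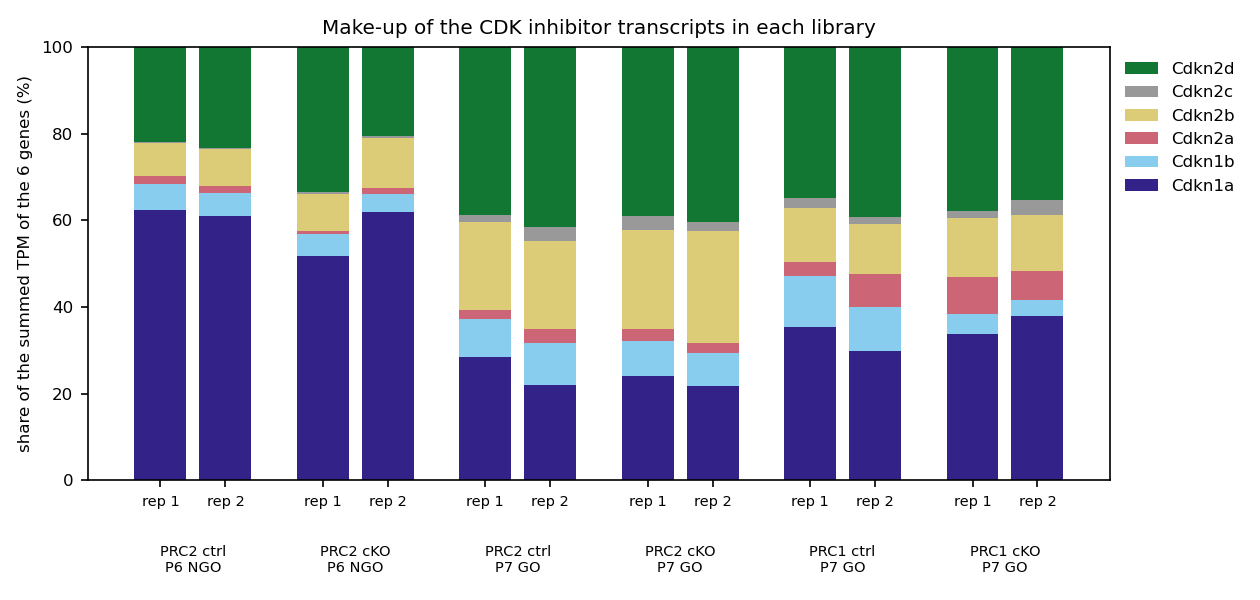
Percent of the summed TPM of the 6 genes contributed by each gene in each library (stacked bars from 0 to 100). Cdkn1a takes the largest share in the non-growing libraries and Cdkn2d in the growing PRC2 libraries. The shares are not affected by a single scaling factor per library.

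The change from non-growing to growing oocytes was tested with limma on log2(TPM + 1), with p-values adjusted by the Benjamini-Hochberg method over all 14153 genes and called at 0.05. In control oocytes Cdkn1a fell by 3.32 (SE 0.27, 95% interval -3.97 to -2.67, adjusted p = 6.28e-05), a 9.99-fold lower level on this scale. Ordered by their change, Cdkn1a was 103rd from the lowest of the 14153 genes. Cdkn2d fell by 1.30 (SE 0.22, adjusted p = 0.0016) and Cdkn1b by 1.20 (SE 0.17, adjusted p = 0.000782). Cdkn2a fell by 0.81 (SE 0.21, adjusted p = 0.0118) and Cdkn2b by 0.78 (SE 0.27, adjusted p = 0.0367). Cdkn2a was under 1 TPM in all 4 growing libraries and passed the low-value filter through non-growing libraries alone, where it was higher, while Cdkn2c, higher in growing oocytes, failed the same filter. The count is therefore partly set by the filter: all 5 members tested were called lower, where 54.0% of all genes were called lower, 16.6% higher and 70.6% in either direction. Both growing control libraries lay below both non-growing ones for these 5 members, as for 66.2% of all genes tested, and above them for Cdkn2c, as for 22.5%. The median change was -1.20 over these 5 members and -0.67 over all genes. Set against that median, Cdkn1a was lower by a further -2.65 and Cdkn2d by -0.63, whereas Cdkn2a (-0.13) and Cdkn2b (-0.11) lay close to it.

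Only Cdkn1a and Cdkn1b were called lower under every scaling in control oocytes. With trimmed-mean scaling, which moved the median of all genes to -0.08, the change was -2.60 for Cdkn1a and -0.58 for Cdkn1b (adjusted p = 0.024), while Cdkn2d was at -0.58 (adjusted p = 0.0593), Cdkn2a at -0.39 and Cdkn2b at -0.10 with no call. Under the same scaling the calls over all genes split into 4013 higher and 4141 lower, against 2346 and 7640 with the TPM as deposited. Leaving out 1 library removed the call of Cdkn2a without control non-growing replicate 1 (adjusted p = 0.0639) or control growing replicate 1 (0.0521), and that of Cdkn2b without control non-growing replicate 1 (0.0871), control non-growing replicate 2 (0.152) or control growing replicate 2 (0.189), all from limma. The ratio of Cdkn1a to Cdkn1b within a library, which a single factor per library leaves unchanged, had a mean log2 of 3.44 at the non-growing and 1.42 at the growing stage. The difference of -2.01 left the 4 libraries without overlap, although an exact two-sided permutation test of 2 against 2 cannot go below p = 0.333.

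In PRC2 cKO oocytes the same stages differed by -2.92 for Cdkn1a (SE 0.27, adjusted p = 0.000107), -1.13 for Cdkn2d (SE 0.22, adjusted p = 0.00336) and -0.79 for Cdkn1b (SE 0.17, adjusted p = 0.00597). These 3 of 5 members tested were called lower, where 46.0% of all genes were called lower and 66.1% in either direction. The same 3 had no overlap of libraries, as had 54.1% of all genes in that direction. Cdkn2a differed by -0.26 (adjusted p = 0.305) and Cdkn2b by -0.45 (adjusted p = 0.185), both uncalled, with a median of all genes of -0.45. Cdkn1a was 126th from the lowest of 14153. Under trimmed-mean scaling only the Cdkn1a call remained among the members (-2.39); Cdkn2d was at -0.59 (adjusted p = 0.0522) and Cdkn1b at -0.36 (adjusted p = 0.112). The calls over all genes then split into 4343 higher and 4260 lower, against 2844 and 6516.

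**Figure D3:**
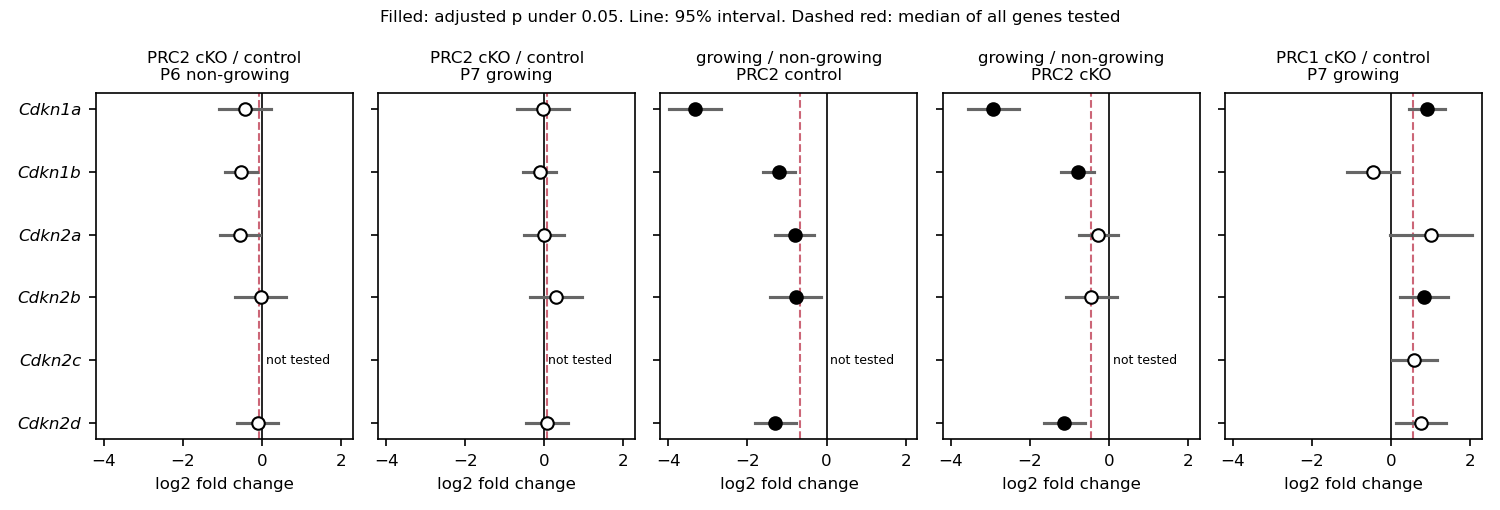
Change of each CDK inhibitor gene in 5 comparisons as log2 fold change on the log2(TPM + 1) scale, with 95% intervals from limma; filled points have an adjusted p under 0.05 and the dashed line is the median of all genes tested. Cdkn1a lies far below the median in both growth comparisons (-3.32 and -2.92), and Cdkn1b is the only member below 0 in the PRC1 comparison (-0.46).

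Loss of Eed left no member past the threshold at either stage. In non-growing oocytes the differences of cKO from control were -0.55 for Cdkn2a (SE 0.21, 95% interval -1.05 to -0.05), -0.53 for Cdkn1b (SE 0.17, interval -0.94 to -0.11), -0.44 for Cdkn1a (SE 0.27, interval -1.09 to 0.22), -0.10 for Cdkn2d (SE 0.22, interval -0.62 to 0.42) and -0.03 for Cdkn2b (SE 0.27, interval -0.68 to 0.61). The limma model gave adjusted p-values from 0.246 for Cdkn1b to 0.969 for Cdkn2b. The unadjusted limma p was under 0.05 for Cdkn1b (0.0196) and Cdkn2a (0.0354), as for 2316 genes in all. In this comparison 0.311% of all genes were called, and the median change of all genes was -0.09. Both cKO libraries lay below both control libraries for Cdkn1a, Cdkn1b and Cdkn2a, a pattern shown by 38.1% of all genes, and above them for the untested Cdkn2c, a pattern shown by 20.3%.

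In growing oocytes the PRC2 cKO differences were -0.12 for Cdkn1b (interval -0.53 to 0.30), -0.04 for Cdkn1a (-0.69 to 0.62), -0.01 for Cdkn2a (-0.51 to 0.49), 0.07 for Cdkn2d (-0.45 to 0.59) and 0.30 for Cdkn2b (-0.35 to 0.94). No member was called or had an unadjusted p under 0.05; limma called 0.17% of all genes, and 1407 had an unadjusted p under 0.05. The median change of all genes was 0.08. The libraries of the genotypes overlapped for all 6 members. The difference between the cKO effects at the 2 stages was itself tested: it ranged from 0.17 for Cdkn2d to 0.54 for Cdkn2a (adjusted p = 0.381), with no member called or under an unadjusted p of 0.05, where 0.0989% of all genes were called and 2230 had an unadjusted p under 0.05. The median of all genes for this difference between stages was 0.16. Data were simulated for the comparison of PRC2 cKO with control in non-growing oocytes alone, with 200 changed genes among 14153. The recovery was 52% of 2-fold and 92% of 4-fold changes. The changed genes were drawn from those with a mean above 2 on the log2(TPM + 1) scale. Cdkn2a lay below that, so the recovery does not cover it or the untested Cdkn2c.

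In growing oocytes labelled PRC1 cKO, 5 of the 6 members had higher values than in PRC1 control, and Cdkn1b had lower values. The control libraries held Cdkn1a at 12.85 and 13.16 TPM and the cKO libraries at 26.61 and 23.92 TPM. For Cdkn2b the control values were 4.52 and 5.04 TPM and the cKO values 10.68 and 8.17 TPM. In both genes the groups were well apart.

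For Cdkn2d the control values were 12.7 and 17.22 TPM and the cKO values 29.8 and 22.2 TPM. For Cdkn2a they were 1.23 and 3.36 TPM against 6.63 and 4.19 TPM. The groups did not overlap, but the control libraries of Cdkn2a lay far from each other. Cdkn2c went from 0.82 and 0.74 TPM (control) to 1.25 and 2.19 TPM (cKO), so that it passed the low-value filter through the cKO libraries alone and could be tested only because it was higher there. Cdkn1b had 4.3 and 4.43 TPM in the control libraries against 3.65 and 2.27 TPM in the cKO libraries. Non-overlap with higher cKO was shown by 62.3% of all 14941 genes tested, and with lower cKO by 15.2%.

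By limma, Cdkn1a was higher by 0.91 (SE 0.18, 95% interval 0.46 to 1.35, adjusted p = 0.0128) and Cdkn2b by 0.84 (SE 0.24, interval 0.24 to 1.45, adjusted p = 0.0367). The differences were 1.01 for Cdkn2a (SE 0.40, adjusted p = 0.0933), 0.76 for Cdkn2d (SE 0.25, adjusted p = 0.0547), 0.59 for Cdkn2c (SE 0.23, adjusted p = 0.0844) and -0.46 for Cdkn1b (SE 0.26, adjusted p = 0.196), none of which was called. These 2 of 6 members called higher stood beside 41.3% of all genes called higher, 6.45% called lower and 47.8% in either direction. The median over the 6 members was 0.80 and that over all genes 0.55. Against that median Cdkn1a stood at 0.36, Cdkn2b at 0.29 and Cdkn1b at -1.01, and 10.6% of all genes had a lower change than Cdkn1b.

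The direction relative to other genes depended on the scaling. With trimmed-mean scaling (median of all genes 0.06) Cdkn1b was called lower at -0.91 (adjusted p = 0.0272), and with quantile normalization (median -0.04) at -1.23 (adjusted p = 0.0142). Under these scalings Cdkn1a was at 0.35 and 0.41 and Cdkn2b at 0.34 and 0.17, with no call, and Cdkn2c turned to -0.29 under quantile normalization. The calls over all genes then split into 3623 higher and 2738 lower with trimmed-mean scaling and 2722 and 2636 with quantile normalization, against 6176 and 964. With the TPM scaled to nuclear protein-coding genes the split was 5052 and 1512, and Cdkn1a remained called at 0.69 (adjusted p = 0.0235) but Cdkn2b (0.66, adjusted p = 0.0638) did not. Cdkn1a lost its call without control replicate 1 (adjusted p = 0.0989), control replicate 2 (0.0727) or cKO replicate 1 (0.0643), Cdkn2b lost it without any single library (0.0544 to 0.221), and Cdkn2c gained one without cKO replicate 1 (0.0334).

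**Figure D4:**
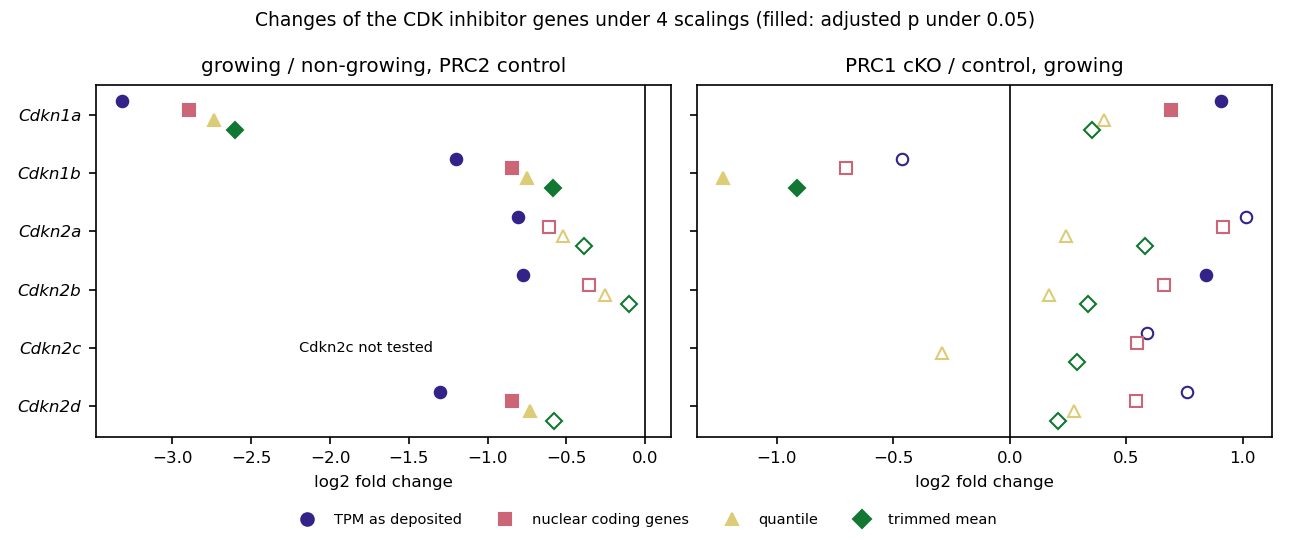
Log2 fold change of each CDK inhibitor gene under 4 scalings, for the stage difference in control oocytes (left) and for PRC1 cKO against control (right); filled symbols have an adjusted p under 0.05 by limma. Cdkn1a stays called on the left (-3.32 to -2.60), while on the right the calls shift from Cdkn1a and Cdkn2b with deposited TPM to Cdkn1b with quantile and trimmed-mean scaling.

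Ratios within a library, which a single factor per library leaves as they are, separated Cdkn1b from Cdkn1a, Cdkn2b and Cdkn2d in the PRC1 comparison. Ratios of Cdkn2a and Cdkn2c to Cdkn1b were not computed. The ratio of Cdkn1a to Cdkn1b was 2.99 and 2.97 in PRC1 control and 7.29 and 10.5 in the libraries labelled PRC1 cKO, with mean log2 values of 1.58 and 3.13. The log2 ratio to Cdkn1b differed by 1.57 for Cdkn2b and by 1.40 for Cdkn2d, each with no overlap of the groups (exact two-sided permutation p = 0.333, the smallest that 2 against 2 allows). By contrast, the log2 ratio of Cdkn1a to Cdkn2b was 1.45 in control and 1.43 in cKO, and that of Cdkn1a to Cdkn2d was -0.19 and -0.03, both with overlapping libraries. That of Cdkn2b to Cdkn2d was higher by 0.17 in cKO, without overlap. In PRC2 cKO non-growing and growing oocytes the log2 ratio to Cdkn1b was also higher without overlap for Cdkn2b (0.58 and 0.51) and Cdkn2d (0.51 and 0.24). For Cdkn1a (0.17 and 0.13) the PRC2 genotypes overlapped. No share over pairs of all genes was computed. The share of Cdkn1b in the summed TPM of the 6 genes went from 10.9% ± 1.22 to 4.12% ± 0.733 (SD, n = 2 each), while that of Cdkn1a was 32.6% ± 3.78 and 35.9% ± 2.94. The p27 protein is removed through the SCF-Skp2 and KPC ubiquitin ligases. A wider list of 12 genes of p27 turnover also held Cul4a, Cul4b, Ddb1, Cops5 and Uhmk1, which lie outside these ligases. Of the 12 genes 3 were called higher and 2 lower, where 41.3% of all genes were called higher and 6.45% lower. The 2 with the smallest p went opposite ways. Skp2, the receptor that recognises p27, rose from 4.73 ± 0.658 to 10.8 ± 1.16 TPM (log2 change 1.04, adjusted p = 0.0175), and Cul1, the scaffold of the ligase, fell from 303 ± 3.55 to 171 ± 17.0 TPM (-0.83, adjusted p = 0.00778). The call of Skp2 was lost under trimmed-mean scaling (0.53) and quantile normalization (0.38), and that of Cul1 was kept under all 3 other scalings.

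Markers of several other ovarian cell types also differed in the PRC1 comparison, in which 41.3% of all genes were called higher. Both cKO libraries lay above both control libraries for 62.3% of all genes tested. Summed TPM was 10.08 to 14.08 in control and 28.5 to 43.7 in cKO for 15 granulosa cell markers, 14.2 to 15.2 and 36.7 to 43.4 for 8 immune markers, 0.91 to 1.79 and 8.87 to 9.98 for 4 theca markers, and 6.06 to 7.28 and 10.97 to 13.07 for 6 endothelial markers. The sums overlapped for 8 stromal markers (1.39 to 2.27 in control and 1.71 to 4.51 in cKO) and were 0.44 against 0.48 to 0.51 for 3 surface epithelium markers and 0.25 to 0.85 against 2.38 to 2.4 for 5 red blood cell markers. Of defining granulosa cell genes, Foxl2 was at 0 in both control libraries and at 0.19 and 0.14 TPM in cKO, whereas Fshr (0.69 and 0.75 against 0.65 and 1.26 TPM) and Amh (0 and 0.05 against 0.24 and 0.04 TPM) overlapped. The number of gene models at 1 TPM or more was 12313 and 12592 in control and 14940 and 15582 in cKO. The part of these differences in the values of the CDK inhibitor genes was not tested. In bulk samples a larger share of another cell type and more RNA per cell cannot be told apart. Expression of the markers by the oocytes themselves was not tested. Markers at 1 TPM or more in both PRC1 cKO libraries were 6 granulosa, 2 immune, 1 theca and 3 endothelial genes. In the PRC2 experiment the granulosa sum was 4.97 to 5.99 TPM in control and 7.08 to 7.85 TPM in cKO non-growing oocytes. In growing oocytes it was 9.62 to 10.23 TPM in control and 10.67 to 12.93 TPM in cKO. Over the PRC2 libraries Foxl2 was at most 0.03 TPM and Amh at most 0.13 TPM.

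With growth and in the PRC1 comparison, the other 2 inhibitor-like genes had the same sign of change as Cdkn1a. Between PRC2 genotypes in non-growing oocytes they did not. There cKO differed from control by 0.33 for Cdkn3 and 0.18 for Cdkn1c, against -0.44 for Cdkn1a, with no call. Of all genes, 54.0% were called lower with growth in control oocytes and 41.3% higher in the PRC1 comparison. Cdkn1c, which encodes the CIP/KIP protein p57, fell from 12.3 ± 1.51 TPM in control non-growing to 3.09 ± 1.33 TPM in control growing oocytes (log2 change -1.74, adjusted p = 0.000666), and Cdkn3, a CDK-associated phosphatase, fell from 86.5 ± 1.29 to 27.2 ± 0.537 TPM (-1.63, adjusted p = 3.62e-05). Both calls were kept under the other 3 scalings. In the PRC1 comparison Cdkn3 rose from 16.0 ± 0.806 to 54.2 ± 1.97 TPM (1.70, adjusted p = 0.00257; called under all scalings) and Cdkn1c from 2.76 ± 0.283 to 6.56 ± 0.311 TPM (1.01, adjusted p = 0.0166; not called under trimmed-mean or quantile scaling).

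Among the kinases and cyclins that the inhibitors act on, levels per length were not all below those of the inhibitors. In control non-growing oocytes Cdk2 was at 27.1 ± 1.25 TPM and Cdk4 at 14.5 ± 1.92 TPM (n = 2), both below Cdkn1a, while Cdk1, the kinase of meiotic resumption, was at 454 ± 6.76 TPM. From non-growing to growing control oocytes Cdk1 fell by 1.45 (adjusted p = 2.23e-05) and Cdk4 by 0.91 (adjusted p = 0.00118), and Cdk2 was at 24.9 ± 1.67 TPM in growing oocytes, with no call. The Cdk1 call was kept under the other 3 scalings and the Cdk4 call only under that to nuclear coding genes. Of 5 genes of cyclins E and A with CDK2, Ccne2 was called higher (0.76) under all scalings and 3 were called lower with deposited TPM, of which only Ccna1 remained so under the others. Ccna1 was under 1 TPM in both growing control libraries and could be tested only because it was higher in non-growing ones. Of 3 genes of D-type cyclins and CDK4/6 tested, 1 was called, Cdk4. These counts stood beside 54.0% of all genes called lower with growth in control oocytes and 16.6% called higher. In the PRC1 comparison 3 of 5 genes of D-type cyclins and CDK4/6 were called higher, beside 41.3% of all genes. These 3 calls were kept under all scalings. By limma, Ccnd2 rose from 1.38 ± 0.849 to 15.9 ± 7.66 TPM (2.79, adjusted p = 0.00713), Cdk4 from 8.70 ± 1.94 to 29.1 ± 4.70 TPM (1.64, adjusted p = 0.00609), and Cdk6 from 0.105 ± 0.0636 to 2.46 ± 0.707 TPM (1.63, adjusted p = 0.00447). Cdk6 was under 1 TPM in both controls and passed the low-value filter through the cKO libraries alone. Ccne1, the G1/S cyclin that partners CDK2, rose from 19.5 ± 2.81 to 80.2 ± 1.10 TPM (1.99, adjusted p = 0.00239), also under all scalings. The pocket protein and E2F list holds the substrates of these kinases. With growth 5 of its 10 genes tested were called lower and none higher, beside 54.0% and 16.6% of all genes. Of these 5, Rbl2 was under 1 TPM in growing oocytes and passed the low-value filter through non-growing libraries alone, where it was higher. Under each other scaling 4 or 5 genes of the list were called higher and 3 or 4 lower.

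The list of p53 and its targets, Cdkn1a left out, held 14 genes tested in the PRC2 table. In control oocytes 11 were called lower with growth and 1 higher, where 54.0% of all genes were called lower and 16.6% higher, with a list median of -1.32 against -0.67 for all genes; under the other scalings 8 to 11 were called lower. Bax, a pro-apoptotic gene, fell from 249 ± 9.86 to 47.7 ± 3.39 TPM (-2.36, adjusted p = 6.35e-06), Sesn1, a stress-induced antioxidant gene, fell from 19.7 ± 1.96 to 2.86 ± 0.0636 TPM (-2.42, adjusted p = 0.000101), and Ccng1, which encodes cyclin G1, fell from 34.7 ± 0.262 to 13.6 ± 1.61 TPM (-1.29, adjusted p = 0.000103). Trp63, the p53 relative that guards oocytes, fell from 66.3 ± 2.86 to 18.4 ± 0.0566 TPM (-1.80, adjusted p = 0.000137). All 4 calls were kept under the other scalings. Mdm4, an inhibitor of p53, was the gene called higher (1.42). Zmat3, among the genes called lower, was at 0.35 ± 0.0707 TPM in control growing oocytes. It passed the low-value filter through non-growing libraries alone, where it was higher, so the count of 11 is partly set by the filter.

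In the PRC1 comparison 9 of 16 genes of this list were called higher and 2 lower, where 41.3% of all genes were called higher and 6.45% lower, with a list median of 0.92 against 0.55 for all genes. Under the other scalings 5 to 7 were called higher and 2 or 3 lower. The gene with the smallest p was Pmaip1, a pro-apoptotic BH3-only gene, from 3.34 ± 1.17 to 98.2 ± 0.559 TPM (4.54, adjusted p = 0.00208). Plk2, a polo-like kinase, rose from 0.505 ± 0.375 to 18.4 ± 1.57 TPM (3.71, adjusted p = 0.00212), Phlda3, an AKT inhibitor, from 0.03 ± 0.0424 to 3.58 ± 1.25 TPM (2.12, adjusted p = 0.00362), and Ccng1 from 14.4 ± 0.0212 to 40.3 ± 5.20 TPM (1.42, adjusted p = 0.00446). Plk2 and Phlda3 were under 1 TPM in both controls and entered the test through the cKO libraries, where they were higher. All 4 calls were kept under the other scalings. The genes of the list called lower were Mdm2 (-0.44) and Mdm4 (-0.54).

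Of the factors known to act on single members, the 2 FOXO factors tested went opposite ways with growth. Foxo3, a forkhead factor that holds mouse primordial follicles at rest, fell from 22.7 ± 0.955 to 8.78 ± 0.573 TPM with growth in control oocytes (-1.28, adjusted p = 0.00299; not called under trimmed-mean scaling), while Foxo1 rose from 3.84 ± 0.156 to 7.70 ± 0.148 TPM (0.85, adjusted p = 0.00241; called under all scalings). In the PRC1 comparison Foxo3 rose from 13.2 ± 1.32 to 47.9 ± 18.2 TPM (1.74, adjusted p = 0.00915; called under all scalings), and Foxo1 was at 6.35 ± 0.460 and 6.01 ± 1.01 TPM, with no call. Tgfb2, a ligand of the TGF-beta pathway that induces Cdkn2b in epithelial cells, rose with growth from 19.2 ± 0.587 to 291 ± 5.43 TPM (3.86, adjusted p = 1.77e-06 by limma). In the PRC1 comparison Tgfb2 fell from 254 ± 20.6 to 139 ± 19.8 TPM (-0.87, adjusted p = 0.0107 by limma), and both calls held under all scalings. A relation between Tgfb2 and Cdkn2b was not tested. The list of TGF-beta and MYC inputs to Cdkn2b held 7 genes tested. With growth in control oocytes Tgfb2 was the 1 called higher and 2 were called lower, beside 16.6% and 54.0% of all genes. In the PRC1 comparison 1 was called higher and Tgfb2 was the 1 called lower, beside 41.3% and 6.45%. The list medians were -0.29 and 0.08. Of 9 Polycomb genes tested, 4 were called higher and 3 lower with growth in control oocytes, beside 16.6% and 54.0% of all genes. In the PRC1 comparison none of the 9 was called higher and 3 lower, beside 41.3% and 6.45% of all genes. Among them Bmi1, the PRC1 subunit known for repressing the Cdkn2a locus, was called higher with growth (1.03, adjusted p = 0.000905) and lower in the PRC1 comparison (-0.65, adjusted p = 0.046), under all scalings. In the PRC2 cKO comparisons no gene of these lists was called other than Eed itself.

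Over the 8 PRC2 libraries, the genes whose log2(TPM + 1) followed each tested member most closely were sought among 8473 genes. These had a mean of at least 5 TPM in at least 1 group, with predicted models left out. For Cdkn1a these were Naxd, which encodes a nicotinamide nucleotide repair enzyme, Kif3a, a kinesin motor subunit, and Pih1d1, a chaperone cofactor (Pearson r = 0.998 each). For Cdkn1b they were Pip4p1 (0.996), Rufy2 (0.992) and Tsr3 (0.992), for Cdkn2d Yy2 (0.994), Nip7 (0.993) and Tasor2 (0.992), for Cdkn2b Slc29a1 (0.984), Dhx9 (0.969) and Retreg2 (0.964), and for Cdkn2a Myh11 (0.983), Mettl9 (0.978) and Usp36 (0.961). The libraries fall into 2 stages, which carry most of these values, and the figures are a description with no test.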

How the data were processed

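RNA from mouse oocytes was sequenced as read pairs of 150 bases from low-input libraries, per the labels. The authors deposited one table of TPM for each experiment. The submitters' processing notes name Trim Galore 0.6.10, HISAT2, SAMtools, Subread 2.0.3, RSEM 1.3.3 and GRCm38/mm10; which tool made the TPM, and how strand and multimapping reads were treated, is not stated there. Groups come from the labels, 2 libraries each.

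Genes with at least 1 TPM in 2 libraries of a table were tested with limma 3.58.1 (R 4.3.3) on log2(TPM + 1), each table's groups being fitted together, a mean-dependent variance trend, and Benjamini-Hochberg adjustment over all genes; changes were computed only within a table. The pseudocount of 1 understates changes of low genes. Ratios were tested with an exact permutation test in SciPy 1.17.1. The members and gene lists were chosen with earlier results of these data known. All members are named, with up to 4 genes of smallest p per list and the 3 genes most like each member. Alternatives covered pseudocounts of 0.1 and 5, filters, scalings (trimmed-mean, quantile, nuclear protein-coding genes), variance settings, a 2-fold minimum, the replicate block and each library left out. In simulated data, recovery in the PRC1 fit was 73.8% of 2-fold changes with 6000 changed genes among 14941 and 0 with 200. Promoters are RefSeq's (GRCm38.p6).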

Additional observations from a re-analysis of the deposited data

How the results depend on the processing

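Of 577 alternative values of the 31 member changes, 513 kept their direction and side of the threshold, 36 lost and 3 gained a call, and 25 changed sign without passing the threshold. The count of members called lower with growth in control oocytes, 5 with deposited TPM, was 2 with trimmed-mean scaling, 3 each with quantile normalization, with scaling to nuclear protein-coding genes and with a 2-fold minimum, and 3 to 5 with each library left out. In control oocytes it was also 4 each with no low-value filter and with a filter of 5 TPM in 2 libraries. In PRC2 cKO oocytes the count was 3 with deposited TPM and 1 with trimmed-mean scaling. It was 2 each with scaling to nuclear protein-coding genes and with a 2-fold minimum. In the PRC1 comparison 2 members were called, both higher, against 1 with no low-value filter and under each of the 3 scalings (a different member, Cdkn1b, called lower under trimmed-mean and quantile scaling), 0 with a 2-fold minimum, and 0 to 1 with each library left out. A lone library left in a group was assumed to vary like the others. The cause of these shifts was not tested.

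The replicate block gave 0 members called in the PRC1 comparison (Cdkn1a adjusted p = 0.0592 by limma) and moved no other member call. Same-numbered libraries correlated in their deviations from the group means by -0.0297 to 0.26 over the PRC2 groups and by -0.268 in PRC1, and the labels do not say that numbers pair libraries.

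Sign changes were as follows, all with no call. For PRC2 cKO against control in non-growing oocytes, Cdkn2b was 0.067 with trimmed-mean and 0.12 with quantile scaling and -0.32 to 0.26 with each library left out, and Cdkn2d was 0.0043 and 0.037 and -0.34 to 0.13 with each library left out. In growing oocytes, Cdkn1a was -0.44 to 0.37 with each library left out, Cdkn1b was -0.27 to 0.038 with each library left out, Cdkn2a was 0.0029 with scaling to nuclear coding genes and -0.037 to 0.021 with each library left out, and Cdkn2d was -0.010 and -0.055 with trimmed-mean and quantile scaling and -0.14 to 0.28 with each library left out. For the difference between these effects, Cdkn1a was -0.0027 to 0.80 with each library left out, and Cdkn2d was -0.015 and -0.092 and -0.059 to 0.41 with each library left out. For growth in cKO oocytes, Cdkn2a was 0.0038 and Cdkn2b 0.059 with trimmed-mean scaling, and Cdkn2a was -0.54 to 0.013 with each library left out. For PRC1, Cdkn2c was -0.29 with quantile normalization.

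Over all genes, the calls in PRC2 cKO non-growing oocytes numbered 44 and ranged from 10 (only the groups compared) to 91 (no filter); in growing oocytes 24, from 1 to 50; for the difference between stages 14, from 3 to 842 (without PRC2 cKO growing replicate 1). With growth there were 9986 in control and 9360 in cKO, and 6577 and 6015 with a 2-fold minimum. In the PRC1 comparison there were 7140, with 4583 at a 2-fold minimum, 2953 without control replicate 1, 4223 without control replicate 2, and 4400 without cKO replicate 1. Members under about 1 TPM, Cdkn2c and in growing PRC2 oocytes Cdkn2a, are limited by their low level, and depth is unknown.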
